A study of Mus musculus with 7 samples.

Results

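The 7 genes described here lie on mouse chromosome 4 within 10 Mb of B4galt1, and their transcripts were followed across the states of bone marrow progenitor cells: Ankrd6, Tmem215, Fam219a, Il11ra1, Ccl27a, Cd72 and Gm12454. They are 7 of the 32285 genes in the count files. They were chosen by the adjusted p of the label difference (below 0.05, knockout against WT label, UMI counts summed over all cells), so that difference is given as a description, with no test. Whether that difference was the same size in each cell state is a separate contrast within libraries, and it was tested.

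The cells were LSK cells, lineage-negative bone marrow cells sorted for Sca-1 and cKit, a population that holds blood stem cells and multipotent progenitors. Of 7 single-cell libraries, 3 came from mice whose genotype label reads 129S1/C57Bl/6, B4-/- (described as a full knockout of B4galt1) and 4 from mice labelled 129S1/C57Bl/6. Both groups thus carry a mixed 129S1 and C57Bl/6 background, no treatment is named, and age, sex and the deleted part of B4galt1 are not given in the sources used here. Nothing states whether a library held 1 mouse or several, so the errors below measure the spread between libraries.

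B4galt1 encodes a galactosyltransferase of the Golgi that extends the sugar chains of glycoproteins. Genes close to an engineered locus are inherited together with it, so on a mixed background the strain of origin of this segment can differ between genotypes, and a difference that follows the allele would be looked for in every cell state that uses the gene. The strain of origin cannot be read from these counts and was not tested. Among the genes described, Ankrd6 (diversin) encodes a scaffold protein of Wnt and planar cell polarity signalling. Il11ra1 encodes the ligand-binding chain of the interleukin-11 receptor, which signals through the shared chain gp130 and is known for its part in megakaryocyte growth. Ccl27a encodes a skin chemokine that acts on the receptor Ccr10, and Cd72 encodes a lectin-like inhibitory co-receptor of B cells. Tmem215 encodes a transmembrane protein, Fam219a a protein of little-known function, and Gm12454 is annotated as an antisense RNA.

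The libraries differed in more than their label. Knockout replicates 1 and 2 and WT replicates 1, 2 and 3 took their cell barcodes from 1 set of sequences (list A), and knockout replicate 3 and WT replicate 4 from another (list B), although 1 kit is named for all. Each list held both labels, but list B held 1 library per label. Total UMIs (unique molecular identifiers, 1 per captured transcript) ranged from 14970791 to 89747946 per library, and 1172 to 8862 cells were kept. Knockout replicate 3 and WT replicate 4 shared 88 barcodes, and every other pair shared at most 7. Those 2 libraries also held the most barcodes (6971 and 9210), from the list with fewer distinct openings. The first 6 bases took 480 forms in each of them, against 900 to 958 in the list A libraries. The source of the shared barcodes was not tested. The sort genes Kit and Ly6a summed to 185 to 221 CPM (counts per 1000000 UMIs of the kept cells) in the knockout-labelled and 186 to 339 CPM in the WT-labelled libraries. The 7 granulocyte-monocyte markers, all detected in every library, summed to 2494 to 10920 CPM in the knockout-labelled and 749 to 2033 CPM in the WT-labelled libraries. The 5 lymphoid-primed markers, of which at least 4 were detected in each library, summed to 53.3 to 235.7 CPM and 268 to 283 CPM in the same order. Neither pair of ranges overlapped, so each gene below was also read within gated states. B4galt1 RNA itself stood at 51.2, 55.6 and 27.4 CPM in the knockout-labelled and at 56.4, 69.2, 56.7 and 34.8 CPM in the WT-labelled libraries. It overlapped between the labels over all 7 libraries and was slightly lower within each barcode list (log2 fold change -0.14, edgeR adjusted p 0.537). The 3′ tags may lie outside the deleted part, so this checks nothing, and groups are named by their labels.

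On the GRCm38 assembly (GENCODE vM21), B4galt1 spans 40804602 to 40854005 of chromosome 4 on the minus strand. Tmem215 (ENSMUSG00000046593, 40472180 to 40477168, plus strand) lay 0.327 Mb away on the centromeric side. On the other side were Fam219a (ENSMUSG00000028439, 41517691 to 41569538, minus strand) at 0.664 Mb, Il11ra1 (ENSMUSG00000073889, 41699989 to 41769474, plus strand) at 0.846 Mb and Ccl27a (ENSMUSG00000073888, 41769467 to 41774247, minus strand) at 0.9155 Mb. Cd72 (ENSMUSG00000028459, 43446462 to 43454628, minus strand) lay at 2.59 Mb and Gm12454 (ENSMUSG00000087142, 43504428 to 43508747, minus strand) at 2.65 Mb. These 6 genes fell within 3.04 Mb of chromosome that held 41 tested genes. Ankrd6 (ENSMUSG00000040183, 32804035 to 32950841, minus strand) stood apart, 7.85 Mb from B4galt1 on the centromeric side.

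Ccl27a and Il11ra1 belong to a stretch of chromosome 4 with near-identical gene copies. As an example, the sequence upstream of Ccl27a is shown beside that of its copy Ccl27b. It lies before the first annotated start, so it does not itself bear on how reads are assigned. Both come from the RefSeq promoter table (GRCm38.p6), in which 6 of the 7 genes matched and Gm12454 did not. Capitals mark the single mismatched base in each and the single base of Ccl27b that has no partner in Ccl27a.
Ccl27a, chr4:41774248-41774426, minus strand: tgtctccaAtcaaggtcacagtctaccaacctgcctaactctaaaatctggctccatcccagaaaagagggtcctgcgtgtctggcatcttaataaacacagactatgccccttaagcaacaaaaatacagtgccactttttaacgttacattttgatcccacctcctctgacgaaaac
Ccl27b, chr4:42650374-42650553, plus strand: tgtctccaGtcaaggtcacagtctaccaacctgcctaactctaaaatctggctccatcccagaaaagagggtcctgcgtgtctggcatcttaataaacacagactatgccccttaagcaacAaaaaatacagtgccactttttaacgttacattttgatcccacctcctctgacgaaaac
Over 180 aligned columns the sequences were identical in 178 (98.9%). Ccl27b had 0 UMIs in the kept cells of all 7 libraries. The part of reads shared between copies in this 0 was not tested, so it does not show that Ccl27b was silent. The 2 other identifiers that carry the symbol Ccl27a held 1 UMI in all. Of the 60-base words in Ccl27a transcripts, 40.0% also occur in another gene, most of them in Gm20878 (24.4%) and Gm13306 (20.1%), and 7.71% occur in Ccl27b. For Il11ra1 the share was 41.9%, all of it shared with Gm13305, which held 7 UMIs in all, while Il11ra2 held 0. Counts of Ccl27a and Il11ra1 are therefore uncertain to the extent that reads could be assigned to a copy.

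Ccl27a showed the largest label difference of the 7 in all kept cells. Its level was 0.278, 0.116 and 1.51 CPM in knockout replicates 1 to 3 (13, 2 and 121 UMIs) and 6.88, 5.05, 10.8 and 22.9 CPM in WT replicates 1 to 4 (89, 64, 187 and 2048 UMIs). The groups did not overlap (0.635 ± 0.764 CPM, SD, n = 3, against 11.4 ± 8.05 CPM, SD, n = 4), and both list B libraries were the highest of their label. From pooled UMIs the WT-labelled level was 33.8-fold that of the knockout label in list A (95% exact interval of the counts 20.2 to 61.1) and 15.2-fold in list B (12.6 to 18.4). These intervals cover counting error only. The fitted log2 fold change (knockout minus WT label, with the barcode list as a covariate) was -4.40 (SE 0.38).

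Ankrd6 stood at 4.68, 5.85 and 2.59 CPM in the knockout-labelled and at 15.7, 21.4, 16.4 and 6.91 CPM in the WT-labelled libraries. Again the groups did not overlap (4.37 ± 1.65 CPM, SD, n = 3, against 15.1 ± 6.01 CPM, SD, n = 4), but here the list B libraries were the lowest of each label. The log2 fold change was -1.57 (SE 0.16). Fam219a stood at 4.96, 7.01 and 5.09 CPM against 13.5, 19.2, 17.1 and 11.8 CPM, with a log2 fold change of -1.31 (SE 0.17). The groups did not overlap (5.69 ± 1.15 CPM, SD, n = 3, against 15.4 ± 3.37 CPM, SD, n = 4).

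Il11ra1 stood at 18.7, 15.1 and 32.1 CPM in the knockout-labelled and at 36.8, 29.7, 32.3 and 55.3 CPM in the WT-labelled libraries. Knockout replicate 3 lay above WT replicate 2, while within each list the labels were separate (22.0 ± 8.99 CPM, SD, n = 3, against 38.5 ± 11.5 CPM, SD, n = 4). The log2 fold change of -0.81 (SE 0.15) was the smallest of the 7. Cd72 stood at 7.67, 6.89 and 23.1 CPM against 21.0, 16.9, 27.4 and 39.2 CPM (log2 fold change -1.22, SE 0.21), and it too overlapped only through knockout replicate 3 (12.6 ± 9.14 CPM, SD, n = 3, against 26.1 ± 9.72 CPM, SD, n = 4). Gm12454 stood at 3.27, 2.84 and 5.48 CPM against 7.50, 6.47, 8.04 and 9.73 CPM, without overlap (3.86 ± 1.41 CPM, SD, n = 3, against 7.93 ± 1.37 CPM, SD, n = 4, log2 fold change -1.02, SE 0.19).

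Tmem215 was the single gene of the 7 that was higher under the knockout label. It stood at 8.12, 4.64 and 2.56 CPM against 0.696, 1.89, 0.752 and 0.807 CPM, a log2 fold change of 2.36 (SE 0.38). In counts this was 380, 80 and 205 UMIs against 9, 24, 13 and 72 UMIs, without overlap between the labels (5.11 ± 2.81 CPM, SD, n = 3, against 1.04 ± 0.572 CPM, SD, n = 4). The plot of levels by library shows where the libraries of each barcode list lie within each label.

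**Figure D1:**
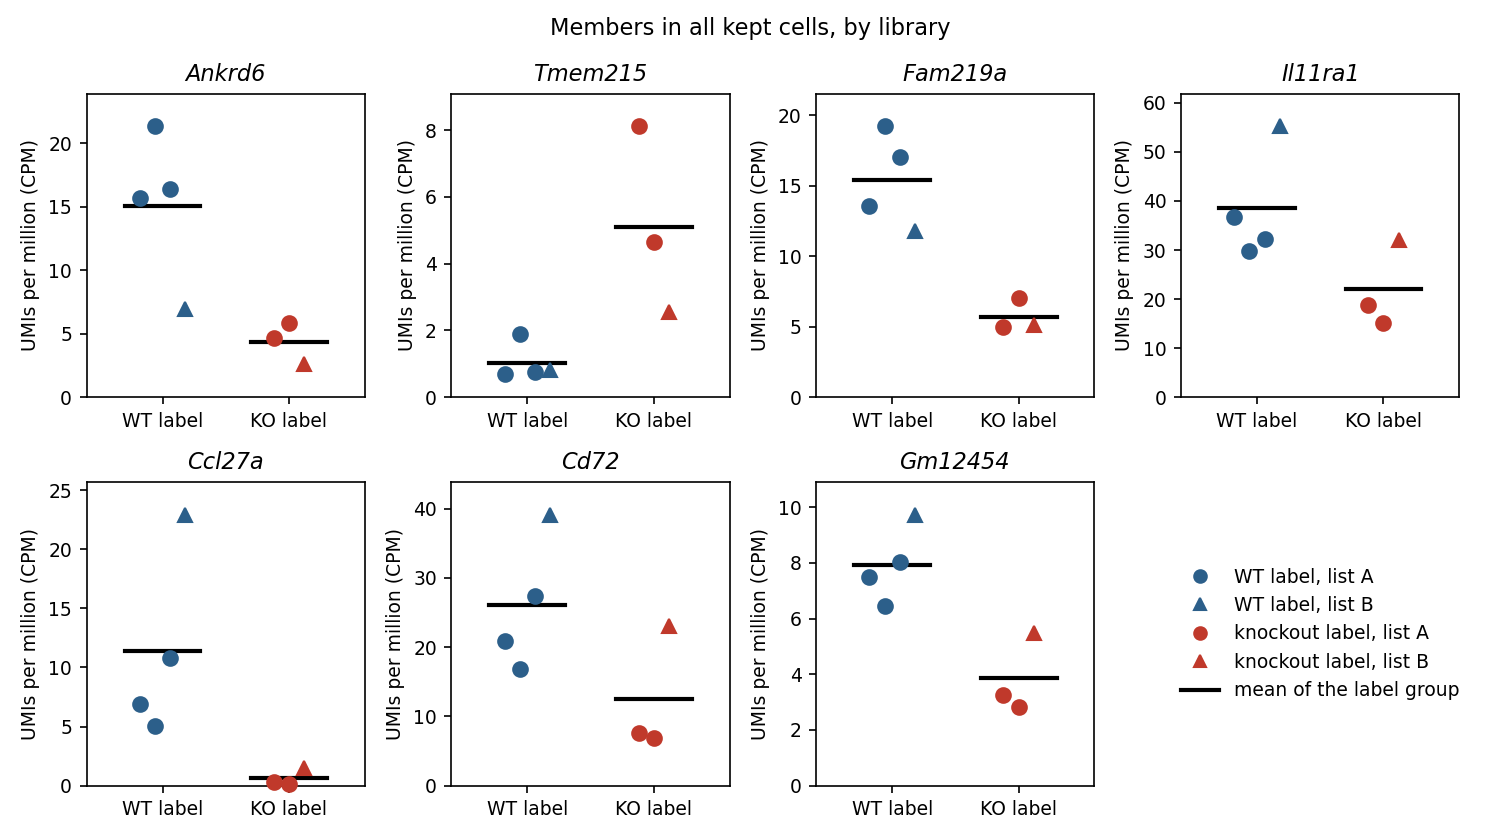
Level of each gene over all kept cells in CPM (vertical axes, linear from 0) for the 4 WT-labelled (blue) and 3 knockout-labelled (red) libraries; circles are list A, triangles list B and bars the group means. Tmem215 is higher under the knockout label, the other 6 lower, and Il11ra1 and Cd72 overlap between the labels through knockout replicate 3.

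The threshold that chose these genes was passed by 162 of 14608 tested genes, or 1.11% (0.637% lower and 0.472% higher under the knockout label, edgeR with the barcode list as a covariate). Among the 7, 4 were lower in every knockout-labelled library than in any WT-labelled one, against 3.62% of all tested genes, and Tmem215 was higher in every one, against 2.14%. Within both barcode lists 6 were lower without overlap, against 17.4% of all tested genes, and 1 was higher, against 9.89%. Since the choice used this contrast, nothing is read from these counts. Just inside the threshold were Il11ra1 and Gm12454 (adjusted p 0.0396 each), and just outside it Gm20878 (0.0734) and Ddx58 (0.0869).

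Most of the genes around them differed little between the labels. Of the 128 tested genes within 10 Mb, the other 121 had a median log2 fold change of 0.037, beside 0.0084 over all genes tested, and 3 of them went past 1 in size. The 13 nearest tested neighbours of the 7 genes lay between -1.75 (Gm20878) and 0.62 (Ndufb6). None was called by edgeR, 4 had an unadjusted p below 0.05, and DESeq2 called 1 of them, Gm20878. On the other side of Ccl27a, Galt stood at -0.12 (SE 0.15), and beside Ankrd6, Lyrm2 stood at 0.037 (SE 0.19) and Rragd at -0.31 (SE 0.27). Aptx, the tested gene beyond Tmem215 towards B4galt1, stood at 0.14 (SE 0.13). Nudt2 and Enho on the sides of Fam219a stood at 0.33 (SE 0.18) and 0.43 (SE 0.30). Rpp25l within the long gene model of Il11ra1 stood at -0.045 (SE 0.15), and Rmrp and Arhgef39 between Cd72 and Gm12454 at 0.55 (SE 0.29) and 0.38 (SE 0.12). The plot against distance shows the 7 genes among neighbours with smaller differences.

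**Figure D2:**
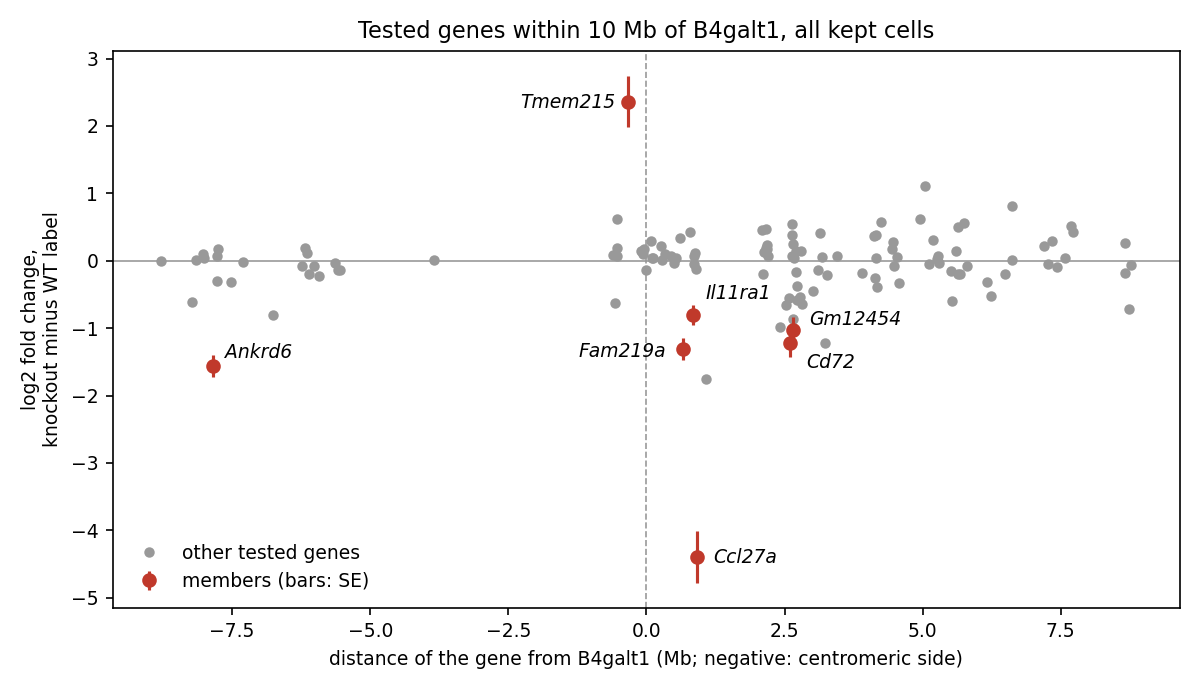
Log2 fold change over all kept cells (knockout minus WT label, vertical axis) of the tested genes within 10 Mb against their distance from B4galt1 in Mb (horizontal axis, negative on the centromeric side); red points are the 7 genes with their SE, grey points the other 121. The red points lie among grey points near 0, with Ccl27a lowest at -4.40 and Tmem215 highest at 2.36.

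Of the 7 genes, Cd72, Gm12454 and Fam219a share much exon sequence with an annotated gene on the opposite strand, and whether the counting used the strand is not given in the sources used here. Cd72 shares 1423 bases of exon with Tesk1, which was lower by a log2 fold change that missed the threshold (-0.56, SE 0.18, edgeR adjusted p 0.157). Gm12454 shares 214 bases with Car9, a carbonic anhydrase gene, which stood at 0.25 (SE 0.15, edgeR adjusted p 0.371), the opposite sign. Fam219a shares 469 bases with Fam219aos, which held 0 UMIs in the kept cells of all libraries. Il11ra1 and Ccl27a overlap by 8 bases at their ends. Gm20878, the copy next to Ccl27a, held 7, 3 and 77 UMIs in the knockout-labelled and 7, 13, 18 and 198 UMIs in the WT-labelled libraries, with a fitted difference of -1.75 on the log2 scale (SE 0.40, edgeR adjusted p 0.0734). Gm13306, another copy, ran the other way with 3, 0 and 15 UMIs in the knockout-labelled libraries and 0, 0, 0 and 1 in the WT-labelled ones, too few to be tested.

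Cells were sorted into states by markers, and 4 states had at least 20 cells in every library. Stem-gated cells carried stem cell markers and no Flt3 (153 to 1073 cells per library). Flt3-positive cells, the multipotent progenitors without a lineage gate, numbered 462 to 4507. Lymphoid-primed cells carried transcripts such as Dntt and Rag1 (122 to 1525 cells), and myeloid-primed cells carried low levels of granule genes such as Mpo (38 to 1121 cells). Myeloid-primed cells were 16.4% to 30.7% of kept cells in the knockout-labelled and 2.53% to 6.67% in the WT-labelled libraries. For lymphoid-primed cells the shares were 5.44% to 12.4% and 17.2% to 18.7% in the same order. Fewer cells of a type and less RNA per cell cannot be told apart in the sums over all cells, and the values within a state are given for that reason. All 7 genes entered the test across states, whereas Tmem215 in stem-gated and lymphoid-primed cells and Gm12454 in stem-gated cells were too low for a fit within the state.

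The label difference of Ankrd6 varied with the state. In lymphoid-primed cells it stood at 8.19, 5.13 and 5.30 CPM under the knockout label and at 33.1, 40.6, 34.5 and 15.1 CPM under the WT label, far apart in both lists. In Flt3-positive cells it stood at 7.44, 6.60 and 2.97 CPM against 14.7, 20.4, 12.8 and 6.32 CPM, separate within each list. In stem-gated cells it stood at 10.6, 7.76 and 1.72 CPM against 9.14, 8.84, 6.89 and 2.22 CPM, and here the labels were intermixed. In myeloid-primed cells the order turned in list A, with 5.69 and 5.05 CPM under the knockout label and 2.78, 2.43 and 0 CPM under the WT label, the latter from 4, 2 and 0 UMIs. List B stood at 1.65 CPM (knockout label) and 1.96 CPM (WT label) in that state, a WT-to-knockout ratio of 1.19 (95% exact interval of the counts 0.494 to 2.57).

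The fitted log2 fold changes of Ankrd6 were -1.94 (SE 0.22) in lymphoid-primed, -1.13 (SE 0.20) in Flt3-positive, 0.0033 (SE 0.45) in stem-gated and 0.73 (SE 0.51) in myeloid-primed cells. The last of these was 1.42 without either list B library and 0.48 without WT replicate 3, and without knockout replicate 1 or 2 Ankrd6 was too low there for a fit. The label difference differed between states (edgeR quasi-likelihood F test, adjusted p 0.000224 over 13430 genes). Relative to Flt3-positive cells the log2 difference was lower by 0.75 in lymphoid-primed cells (95% interval -1.31 to -0.19), higher by 1.13 in stem-gated cells (0.30 to 1.95) and higher by 1.82 in myeloid-primed cells (0.94 to 2.71). Under the WT label, lymphoid-primed cells had the highest level in all 4 libraries and Flt3-positive cells came next. Under the knockout label the highest level was in stem-gated cells in replicates 1 and 2 and in lymphoid-primed cells in replicate 3. The call held without each of the 7 libraries (edgeR adjusted p up to 0.0189) and without each of the 3 other states. It was lost with stricter gates (edgeR adjusted p 1.00), under which 3 states remained and the log2 fold changes were -1.65 in lymphoid-primed and -1.48 in Flt3-positive cells. Under these gates, cells that failed a lineage gate could pass into the Flt3-positive cells, the reference. That state grew from 2604 to 3770 cells in knockout replicate 3 and from 4507 to 5702 in WT replicate 4. The setting thus changed the reference as well, and does not show whether purer states differ.

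Ccl27a was lower under the knockout label in every state, but not by the same factor. In stem-gated cells it stood at 1.17, 0 and 4.62 CPM against 8.31, 8.04, 13.8 and 33.8 CPM. In Flt3-positive cells it stood at 0.444, 0.60 and 2.43 CPM against 9.38, 5.67, 11.7 and 25.2 CPM. Both states thus held some transcript under the knockout label, most clearly in replicate 3 with 35 and 63 UMIs. In lymphoid-primed cells the knockout-labelled libraries held 0, 0 and 2 UMIs (0, 0 and 0.180 CPM), whereas the WT-labelled ones stood at 5.63, 4.58, 8.55 and 19.0 CPM. In myeloid-primed cells they held 2, 0 and 7 UMIs (0.170, 0 and 0.398 CPM) against 2.79, 3.64, 5.86 and 15.2 CPM. The labels did not overlap in any of the 4 states.

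In list B, where counts were deepest, the WT-labelled level of Ccl27a was 7.32-fold the knockout-labelled one in stem-gated cells (95% exact interval of the counts 5.13 to 10.7) and 10.4-fold in Flt3-positive cells (8.05 to 13.6). It was 38.2-fold in myeloid-primed cells (17.6 to 98.5) and 106-fold in lymphoid-primed cells (29.1 to 878). In list A the ratio was 13.8 in stem-gated (3.58 to 118), 19.3 in Flt3-positive (8.71 to 53.2) and 36.0 in myeloid-primed cells (7.87 to 335), so the intervals of these 3 states overlapped there. Lymphoid-primed cells of the knockout label held 0 UMIs in list A, which makes the WT-labelled level at least 7.45-fold higher, with a floor of 3 counts over the pooled libraries. The fitted log2 fold changes were -3.05 (SE 0.37), -3.64 (SE 0.32), -6.66 (SE 0.58) and -5.11 (SE 0.59) in stem-gated, Flt3-positive, lymphoid-primed and myeloid-primed cells. Those of the last 2 states depend on the prior count, since most of their knockout-labelled libraries were at or below 2 UMIs.

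The label difference of Ccl27a differed between states (edgeR quasi-likelihood F test, adjusted p 0.00182 over 13430 genes). Relative to Flt3-positive cells it was lower by 3.24 on the log2 scale in lymphoid-primed cells (95% interval -4.74 to -1.75) and by 1.62 in myeloid-primed cells (-2.66 to -0.58), while in stem-gated cells it was 0.48 (-0.27 to 1.23). The call rested on list B: without knockout replicate 3 the edgeR adjusted p was 0.929, and without WT replicate 4 it was 0.937. It was also lost with stricter gates (edgeR adjusted p 0.336), which let more cells into the Flt3-positive reference, and without lymphoid-primed cells (0.249).

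**Figure D3:**
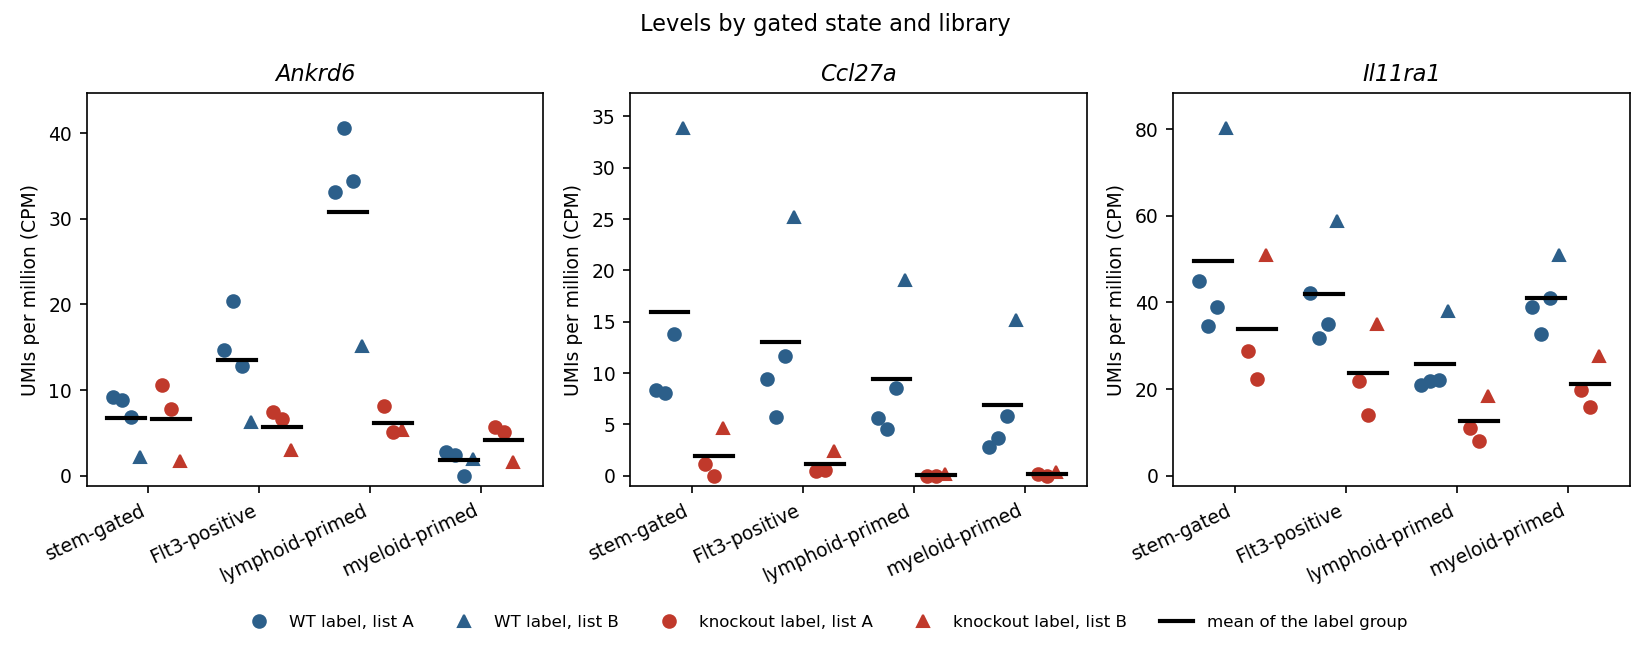
Levels in CPM (vertical axes, linear) of Ankrd6, Ccl27a and Il11ra1 in the 4 gated states, by library; blue is the WT label, red the knockout label, circles list A, triangles list B and bars the group means. Ankrd6 is separated in lymphoid-primed cells, separated in Flt3-positive cells within each list alone, and intermixed in stem-gated cells, while Il11ra1 is lower under the knockout label in each state within each list.

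Il11ra1 was lower under the knockout label in all 4 states, by values that lay close together. Its log2 fold changes were -0.63 (SE 0.19) in stem-gated, -0.89 (SE 0.16) in Flt3-positive, -1.07 (SE 0.17) in lymphoid-primed and -0.99 (SE 0.17) in myeloid-primed cells. In stem-gated cells, its highest state in 6 of 7 libraries, the level was 28.7, 22.3 and 50.9 CPM against 44.9, 34.6, 39.0 and 80.2 CPM. In lymphoid-primed cells, its lowest state in all 7, it was 11.1, 8.06 and 18.4 CPM against 20.9, 21.9, 22.0 and 38.0 CPM. Within each list the labels were separate in every one of the 4 states. The difference between states did not pass the test (edgeR adjusted p 1.00), and the 95% intervals relative to Flt3-positive cells ran from -0.15 to 0.47 in stem-gated, -0.57 to 0.11 in lymphoid-primed and -0.39 to 0.21 in myeloid-primed cells. Departures of up to about that size are not excluded by these intervals.

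Fam219a was likewise lower in each state, with log2 fold changes of -0.75 (SE 0.24) in stem-gated, -0.96 (SE 0.19) in Flt3-positive, -1.20 (SE 0.32) in lymphoid-primed and -1.24 (SE 0.33) in myeloid-primed cells. Stem-gated cells had its highest level in all 7 libraries, at 14.7, 26.2 and 11.8 CPM against 28.3, 45.0, 26.0 and 19.7 CPM. Knockout replicate 2 there lay above WT replicates 3 and 4, so the labels overlapped. In lymphoid-primed cells they did not, at 5.30, 2.20 and 3.15 CPM against 7.62, 11.1, 9.78 and 7.19 CPM. The states did not differ in the test (edgeR adjusted p 1.00), with intervals relative to Flt3-positive cells from -0.25 to 0.75 in stem-gated, -0.78 to 0.50 in lymphoid-primed and -0.84 to 0.44 in myeloid-primed cells.

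Cd72 was lower under the knockout label by a fitted value that ranged more widely. The log2 fold changes were -0.38 (SE 0.21) in stem-gated, -0.51 (SE 0.19) in Flt3-positive, -0.79 (SE 0.18) in lymphoid-primed and -1.30 (SE 0.25) in myeloid-primed cells. Without knockout replicate 1 the stem-gated value was -0.60, and without WT replicate 4 it was -0.26. The labels overlapped within list A in stem-gated cells, at 22.3 and 12.6 CPM against 20.8, 22.5 and 23.0 CPM. They also overlapped there in Flt3-positive cells, at 19.0 and 12.6 CPM against 24.1, 16.9 and 28.8 CPM. In myeloid-primed cells, where Cd72 was lowest in all 7 libraries, it stood at 4.76, 4.12 and 14.2 CPM against 9.75, 12.1, 20.5 and 29.3 CPM, separate within both lists. The test across states did not pass after adjustment (edgeR adjusted p 0.332), although the interval for myeloid-primed relative to Flt3-positive cells ran from -1.11 to -0.28. Over its alternatives the adjusted p of that test ranged from 0.0533 to 1.00.

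Gm12454 and Tmem215 rested on few UMIs in these states. Gm12454 had log2 fold changes of -0.61 (SE 0.22) in Flt3-positive, -1.12 (SE 0.32) in lymphoid-primed and -1.34 (SE 0.41) in myeloid-primed cells. In stem-gated cells it was intermixed, at 5.28, 7.76 and 7.0 CPM against 6.65, 5.62, 5.36 and 9.15 CPM. Tmem215 had log2 fold changes of 2.38 (SE 0.45) in Flt3-positive and 1.30 (SE 0.51) in myeloid-primed cells. In the latter the labels overlapped within list A (7.39 and 4.79 CPM against 2.09, 7.28 and 0 CPM). The value there was 1.95 without WT replicate 2 and 0.998 without knockout replicate 3. In stem-gated cells it held 23, 6 and 9 UMIs against 0, 0, 0 and 3 UMIs, and in lymphoid-primed cells 1, 2 and 10 UMIs against 3, 3, 0 and 3 UMIs. Neither gene passed the test across states (edgeR adjusted p 1.00 for each), and the intervals of Tmem215 were wide, from -0.59 to 3.66 in stem-gated relative to Flt3-positive cells.

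**Figure D4:**
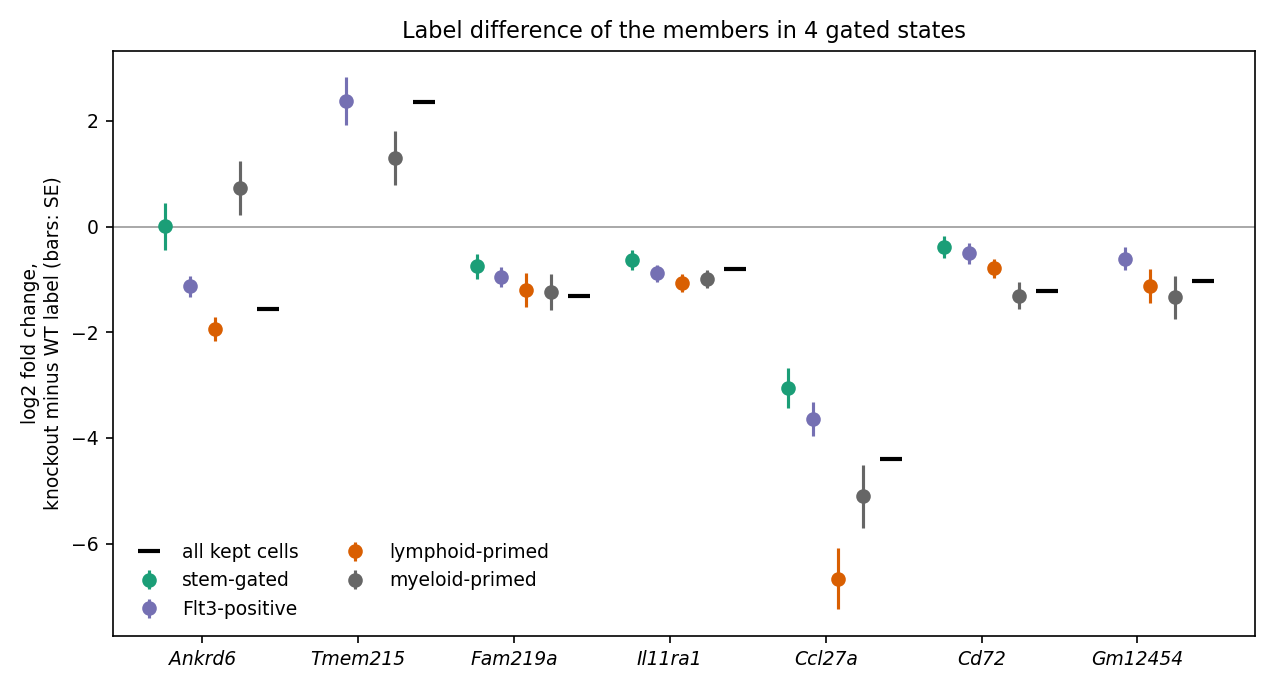
Log2 fold change (knockout minus WT label, vertical axis, bars SE) of each gene in the 4 gated states (coloured points) and over all kept cells (black dash). The 4 points of Il11ra1 and of Fam219a lie close together, those of Ankrd6 spread from -1.94 to 0.73 and those of Ccl27a from -6.66 to -3.05; Tmem215 and Gm12454 lack the states in which they were too low.

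In all, 2 of the 7 genes passed the test across states, against 0.223% of the 13430 genes tested (30 genes). The 7 were chosen for a label difference and the 13430 were not, so nothing is read from this comparison. For the other 5 a p above the threshold does not show that the states were alike, and the plot of differences gives their intervals.

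**Figure D5:**
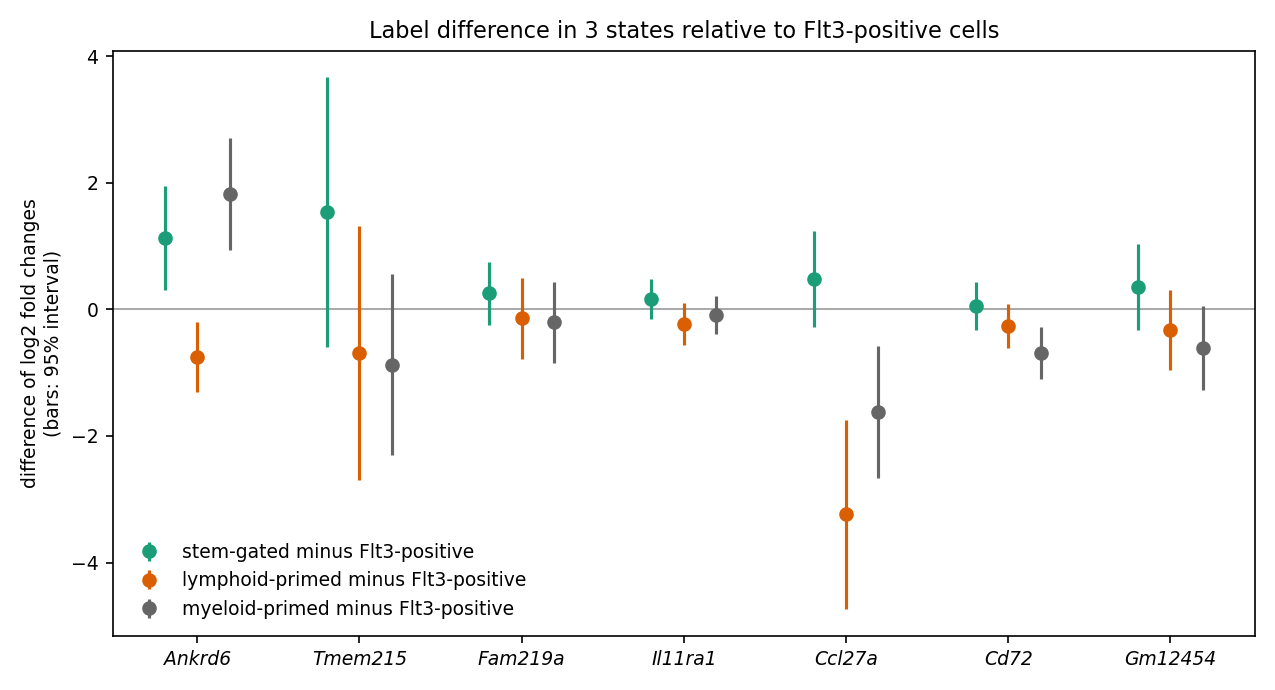
Label difference in stem-gated, lymphoid-primed and myeloid-primed cells relative to Flt3-positive cells (difference of log2 fold changes, vertical axis, bars 95% intervals) for each gene. All 3 intervals of Ankrd6 and 2 of the 3 of Ccl27a exclude 0, as does the myeloid-primed interval of Cd72, while the others include it.

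The size of some differences over all cells moved with the cells that entered the sum and with their weights. For Cd72 the label difference of plain CPM, adjusted for the barcode list, was -1.32 on the log2 scale in all kept cells, -1.09 in the pooled cells of the 4 states and -0.72 when these states had equal weight in each library. In the same order it was -1.40, -1.20 and -0.91 for Fam219a, -1.13, -0.97 and -0.76 for Gm12454, and -1.66, -1.56 and -1.14 for Ankrd6. These 4 genes kept their direction at a smaller size, and for each of them the step to equal weights was the larger of the 2. For Il11ra1 (-0.91, -0.87 and -0.90), Ccl27a (-4.92, -4.72 and -4.43) and Tmem215 (2.34, 2.43 and 2.45) the values moved by less than the spread between libraries.

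In list B the committed states held enough cells to show the same genes, with 1 library per label and so no test. In megakaryocyte-gated cells (374 and 234 cells) Ccl27a stood at 0.859 CPM under the knockout label and 20.2 CPM under the WT label, and Il11ra1 at 35.5 and 77.2 CPM. The WT-labelled level of Il11ra1 was 2.17-fold the knockout-labelled one (95% exact interval of the counts 1.81 to 2.61) and that of Cd72 1.82-fold (1.37 to 2.41), while for Ankrd6 the ratio was 1.31 (0.55 to 3.05). Tmem215 held 3 and 2 UMIs there. In granule-high cells, which express granule genes most strongly (170 and 113 cells), Ankrd6 stood at 1.73 and 1.78 CPM and Tmem215 at 5.19 and 1.34 CPM.

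Other members of the pathways of these genes were read in the same comparison over all cells, where 1.11% of genes passed. Of 15 tested genes of gp130 cytokine signalling, 2 rose beside the fall of Il11ra1. Socs3, a feedback inhibitor of gp130 signalling, rose (log2 fold change 1.21, SE 0.14, edgeR adjusted p 0.0115), with 28.9, 33.0 and 14.3 CPM against 11.1, 14.9, 13.5 and 7.86 CPM. Osm, a cytokine of the family, rose by 0.87 (SE 0.16, edgeR adjusted p 0.0396), but its call was lost without any one of the 7 libraries (edgeR adjusted p 0.0631 to 0.0972). Il6st, which encodes gp130 itself, had a log2 fold change of 0.60 (SE 0.14) and an edgeR adjusted p of 0.0844. The median over the list without Il11ra1 was 0.17.

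Of 4 tested genes among skin and gut chemokines and their receptors, Ccr9, a homing receptor of lymphoid progenitors, fell beside Ccl27a (log2 fold change -2.61, SE 0.44, edgeR adjusted p 0.0308). It stood at 0.983, 1.33 and 0.80 CPM against 3.71, 3.39, 7.75 and 11.4 CPM, and its call was lost without knockout replicate 1, WT replicate 1 or WT replicate 3 (edgeR adjusted p 0.0862, 0.0514 and 0.109). Ccr10, the receptor of Ccl27a, was too low to be tested. Of 12 tested genes of B cell receptor signalling, Cd72 alone was called by edgeR, and the smallest p among the rest was that of the adaptor Blnk (log2 fold change -0.96, SE 0.24, edgeR adjusted p 0.0995). Of 18 tested genes of planar cell polarity, none but Ankrd6 was called by edgeR, and the smallest p among the rest was that of the Wnt receptor Fzd6 (-0.72, SE 0.19, edgeR adjusted p 0.104). Both Blnk and Fzd6 were called by DESeq2, and Blnk also by edgeR without the low-count filter (adjusted p 0.0255). The medians of these 3 lists without the described gene were -1.55, -0.12 and -0.033, beside 0.0084 over all genes tested. The first rests on 3 genes and is the value of Ccr7 (SE 0.33, edgeR adjusted p 0.0617), while Ccl25 stood at -0.060 (SE 0.11). The lymphoid-primed markers given above moved with Ccr9, and their part in its fall was not tested.

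Across the 28 sums of library and state, the genes whose log2 CPM followed each gene most closely were taken from 10607 candidates. For Ankrd6 they were St3gal5, a ganglioside sialyltransferase, and Slc44a1, a choline transporter (Pearson r 0.82 each). For Fam219a they were Pcdh7 and Itsn1 (0.88 and 0.86), and for Cd72 Gm5111 and Dok2 (0.94 and 0.92). For Il11ra1 they were Afp and Otos (0.85 each), for Gm12454 Chac2 and Msrb2 (0.79 and 0.74), for Ccl27a 2610002M06Rik and Sytl4 (0.75 and 0.74), and for Tmem215 Lbp and Csf2rb (0.71 and 0.67). The 7 genes were left out of that ranking, so none of them could be listed. Among the 7 themselves the highest correlation was that of Il11ra1 with its neighbour Ccl27a (0.80), and that of Ankrd6 with Tmem215 was 0.0085. Il11ra1 thus followed Ccl27a more closely than did 2610002M06Rik or Sytl4, and at 0.77 it followed Gm12454 more closely than did Msrb2. The sums share libraries, depth and barcode lists, so these correlations are descriptions only. They also span both labels, and Il11ra1, Ccl27a and Gm12454 were all chosen for a label difference and are lower under the knockout label. Correlations among the 7 thus carry that choice, and nothing is read from setting them beside those of other genes.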

How the data were processed

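The authors deposited, for each of 7 libraries, UMI counts per gene and barcode. Per the submitters' processing notes, Cell Ranger 7.0.0, Seurat 4.4.0 and mm10 were used; per the labels' protocols the kit was Single Cell 3′ v2. The annotation and the counting's use of strand are not given in the sources used here. The 7 genes and the gene lists were chosen with earlier results of these data known.

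Barcodes with at least 1000 UMIs, 500 genes and at most 10% mitochondrial UMIs were kept (24430 cells; median 8046 to 11084 UMIs per library). Doublets were not called; 951 cells passing the gates of several lineages were left out in an alternative. Gates used marker lists, with cut-offs set on all libraries together after the files were seen, without the labels. A cell needed 3 markers of a lineage (4 for monocyte-dendritic cells and for stem-gated cells, which also lacked Flt3) or 3 UMIs of the lymphoid-primed list. Myeloid-primed cells needed 3 granulocyte-monocyte markers as well as 0.2% to 1% of their UMIs in that list. A cell passing several gates went to the mature or committed lineage first, then to myeloid-primed, lymphoid-primed, stem-gated and Flt3-positive in that order. Of all kept cells, 1970 lay near the 0.2% limit (0.15% to 0.25%) and 1523 near the lymphoid-primed limit (2 or 3 UMIs).

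Counts were summed per library, and per library and state, and tested by quasi-likelihood in edgeR 4.0.16 (R 4.3.3, TMM, filterByExpr, robust, two-sided, Benjamini-Hochberg, threshold 0.05). The sums over all cells had the barcode list as a covariate. The test across states had library, state and barcode list by state as terms (12 residual degrees of freedom). CPM values are plain UMIs per 1000000. Named besides the 7 genes were B4galt1, copies, nearest tested neighbours, and list members past the threshold or with the smallest p. Also named were the 2 genes outside the 7 most correlated with each. Alternatives used RLE size factors, DESeq2 1.42.0, limma 3.58.1 (voom), other filters, gates and covariates, each library left out, and, added after the data were seen, each state but Flt3-positive left out the 4 states pooled, and equal weights for states. Both fits were tested on simulated counts. No 2 libraries were copies of each other (chi-square per degree of freedom at least 20.0).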

Additional observations from a re-analysis of the deposited data

Results flagged for a closer look

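The label difference of Ankrd6 and that of Ccl27a differed between the gated states by the edgeR F test (adjusted p 0.000224 and 0.00182). The second was lost without knockout replicate 3 (edgeR adjusted p 0.929) or WT replicate 4 (0.937), the 2 libraries of list B.

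Among the 4 WT-labelled libraries, 5 of 40 groups of values had a library far from the rest, where chance gives about 1 in 20. Tmem215 over all cells was highest in WT replicate 2 (1.89 CPM), and in stem-gated cells it was above 0 in WT replicate 4 alone of the 4 (0.392 CPM, 3 UMIs). That value is not apart from the others at this depth, since their counts of 0 allow up to 2.30 to 2.49 CPM (3 counts of the total). WT replicate 4 was also highest for Il11ra1 in lymphoid-primed cells (38.0 CPM) and for Cd72 in stem-gated cells (36.5 CPM), and lowest for B4galt1 in lymphoid-primed cells (38.0 CPM). It is the single WT-labelled library of list B, and the part of the list in these values was not tested.

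Gm13306, a copy that shares sequence with Ccl27a and was too low for the fit, reached 15 UMIs in knockout replicate 3, against at most 1 UMI in a WT-labelled library.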

How the results depend on the processing

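All 7 genes kept the direction of their label difference over all cells in the 16 alternatives run, although all 7 were past the threshold in 5 of them only. Without granule-high, monocyte-dendritic, neutrophil, B and T/NK cells, 5 of the 7 were called, and Cd72 and Gm12454 were not. The number of genes called over all cells (162) was 547 without the low-count filter, 856 by DESeq2, 362 in list A alone, 16 to 349 when single libraries were left out and 0 by edgeR without the barcode-list covariate (697 at an unadjusted p below 0.05). With a replicate block, without that covariate, it was 1, and none of the 7 was called. Same-numbered libraries of the 2 labels correlated at 0.52, 0.71 and -0.34. With the other WT replicates compared, knockout replicates 1 to 3 correlated less (0.33 and 0.23, 0.50 and 0.30, -0.64 and -0.68). Knockout replicate 3 is of list B and the WT replicates compared are of list A. Whether the numbers pair the libraries was thus not settled. Genes called in the pathway lists besides the 7 (3) came to 6, 8, 0 and 0 without the filter, by DESeq2, without the covariate and with the replicate block, and to 1 to 4 with single libraries left out.

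The number of genes whose label difference differed between states (30) was 172 without the low-count filter, 83 by limma-voom, 11 without barcode-list by state terms, 17 without lymphoid-primed cells and 15 to 61 when single libraries were left out. Ankrd6 in stem-gated cells (0.0033) turned to -0.027 without the barcode list, -0.23 without knockout replicate 1, and -0.0080 and -0.079 without WT replicates 2 and 3, and was highest, at 0.21, without WT replicate 4. The causes were not tested. Depth limits Ccl27a, Tmem215 and Gm12454 within states, where single libraries held few UMIs.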
